A study of Homo sapiens with 4 samples.

Results

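The genes described here are the 47 components of the route by which a new secretory protein enters the endoplasmic reticulum (ER), is cut and glycosylated there, and leaves in a coated vesicle. They were chosen by name, as subunits of the signal recognition particle (SRP), the translocon, signal peptidase, oligosaccharyltransferase, the COPII vesicle coat and the receptors that carry or retrieve cargo. Each symbol matched 1 Ensembl gene of the deposited table, so 47 of its 78932 genes were members, and all 47 passed the filter on low counts. RNA-seq was done on RPMI 8226, an established line of human multiple myeloma cells, collected 72 h after transfection with a locked nucleic acid (LNA) antisense oligonucleotide. One group of 2 libraries received a control oligonucleotide, Control LNA ASO1, whose dose the labels do not give separately. The other group of 2 received 50 nM of an oligonucleotide against the long noncoding RNA LINC01432, LINC01432 LNA ASO3. All 4 libraries thus came from 1 line and 1 time point, with 1 oligonucleotide sequence per target, and no untransfected cells were analysed here.

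A secretory protein carries a signal sequence that SRP binds as it leaves the ribosome. SRP docks the ribosome on its receptor in the ER membrane, the chain is threaded through the Sec61 channel, signal peptidase removes the signal, and oligosaccharyltransferase adds N-linked sugars. Folded cargo is packed into COPII vesicles, while KDEL receptors return escaped ER proteins. Plasma cells and the myeloma cells derived from them depend on this route, since they secrete immunoglobulin in bulk, and the transcription factor XBP1 is known to drive many of its genes in them.

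The libraries held 20873393 to 29161298 gene counts, and none of the 6 library pairs was identical. LINC01432 itself fell from 19.2 ± 1.84 to 9.45 ± 0.642 CPM (SD, n = 2 libraries each; CPM are gene counts scaled to library size by the TMM method), to 49.1% of control. The 10 plasma cell markers summed to 3387 and 3609 CPM in the control libraries and 2978 and 3394 CPM in the LINC01432 LNA libraries. Markers of T and NK cells, of myeloid cells, and of fibroblasts and endothelium summed to at most 7.92 CPM in any library, with LYZ and S100A8 at 0. The 6 epithelial markers summed to 114 and 118 CPM in controls and to 99.3 and 99.8 CPM with LINC01432 LNA, with KRT19 at 0. Nothing in the labels ties the replicates to separate cultures, and p-values then reflect only how far these libraries differ from each other, which may be technical. In a bulk sample, fewer cells and less RNA per cell cannot be told apart.

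Short promoter sequences are shown first because many members share a letter motif there. The window runs from 250 bases before to 50 after a RefSeq transcription start (GRCh38.p14), and 41 of the 47 members had at least 1 such entry, 56 entries in all. The unfolded protein response element, TGACGTGG on either strand, to which XBP1 is known to bind, was found for 8 of these 41 members (19.5%). Of all 27305 genes in the table, 0.927% had it. The 8 sites are given below on the strand that reads the motif, 5′ to 3′, with the motif in capitals and with GRCh38.p14 coordinates.
KDELR3, chr22:38468039-38468068, minus strand: tggccgggcggTGACGTGGccagggcggcc
SEC62, chr3:169966779-169966808, minus strand: ccggttccctcTGACGTGGagcgaggaggg
SSR4, chrX:153794528-153794557, minus strand: tctggcagcacTGACGTGGcccctccctga
SSR3, chr3:156554148-156554177, plus strand: agtttccttgcTGACGTGGctgttatcaga
SRP19, chr5:112861164-112861193, minus strand: tctctagtctcTGACGTGGcatgaagactt
SEC24A, chr5:134648595-134648624, plus strand: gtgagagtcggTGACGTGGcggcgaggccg
SEC16A, chr9:136484707-136484736, plus strand: ttcagtccggcTGACGTGGcaccagggcca
SEC23A, chr14:39103221-39103250, minus strand: tcccctcctctTGACGTGGcagaggcggcg

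These sites did not sort the members by their change. KDELR3 and SEC62 fell, SSR4 rose, and the other 5 did not pass the test. Counted at its upstream end on the gene's own strand, the motif lay between 179 bases before and 16 bases after the start used. SSR3, SSR4 and SEC16A had more than 1 start. A shorter XBP1 core, GCCACGT, overlaps that element in 7 of the 8 sites and was found for 17 of the 41 members (41.5%) against 3.95% of all genes. Of the 11 members that fell and had an entry, 4 held this core, and they were KDELR3, SEC63, SRPRB and SSR1. The bases before the start, up to the first annotated exon, are printed for 3 of these on the gene's own strand, with both motifs in capitals.
KDELR3, chr22:38467846-38468061, plus strand: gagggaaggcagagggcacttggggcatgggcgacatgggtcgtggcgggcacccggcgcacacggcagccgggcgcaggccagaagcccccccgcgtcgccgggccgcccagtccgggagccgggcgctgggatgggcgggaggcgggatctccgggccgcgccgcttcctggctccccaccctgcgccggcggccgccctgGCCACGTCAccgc
SSR1, chr6:7313232-7313449, minus strand: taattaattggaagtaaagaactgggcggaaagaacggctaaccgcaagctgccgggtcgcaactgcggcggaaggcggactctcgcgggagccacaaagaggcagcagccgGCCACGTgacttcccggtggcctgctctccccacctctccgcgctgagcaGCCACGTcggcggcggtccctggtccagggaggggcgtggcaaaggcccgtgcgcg
SEC63, chr6:107958209-107958458, minus strand: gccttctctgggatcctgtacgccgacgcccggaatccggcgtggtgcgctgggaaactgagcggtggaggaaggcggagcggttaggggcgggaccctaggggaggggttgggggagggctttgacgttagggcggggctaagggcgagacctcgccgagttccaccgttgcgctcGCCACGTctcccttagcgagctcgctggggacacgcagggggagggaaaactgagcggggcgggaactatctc

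SSR1 holds the core in 2 places and SEC63 in 1. The classical ER stress response element (CCAAT and CCACG with 9 bases between them), its second form (ATTGGNCCACG) and the cAMP response element (TGACGTCA) had no match in the 41 members, against 0.0916%, 0.0696% and 2.25% of all genes. A plain CCAAT box was present for 21 of 41 members (51.2%) and 39.7% of all genes. A match is a run of letters and was not tested for binding.

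Components of the ER entry route were mostly lower with LINC01432 LNA, by modest amounts. By edgeR's quasi-likelihood test over all 18680 genes tested, with a Benjamini-Hochberg adjusted p under 0.05, 12 of the 47 members fell, 1 rose and 34 did not pass. Of all genes tested, 11.9% were called: 4.37% fell and 7.5% rose. At an unadjusted p under 0.05, 26 members were lower, as were 11.3% of all genes. The median log2 fold change (LINC01432 LNA over control) was -0.22 for the members and 0.01 for all genes, and 41 members had a negative value. In 36 members both LINC01432 LNA libraries lay below both controls, which 25.9% of all genes did, and in 2, SSR4 and SPCS1, both lay above, which 28.2% did. Members are abundant genes. The lowest member, SRP19, had a control mean of 6.705 CPM. Of the 9446 tested genes whose mean over all 4 libraries was at least that, 7.71% fell. In 36% of them both LINC01432 LNA libraries lay below both controls, and their median was -0.03.

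**Figure D1:**
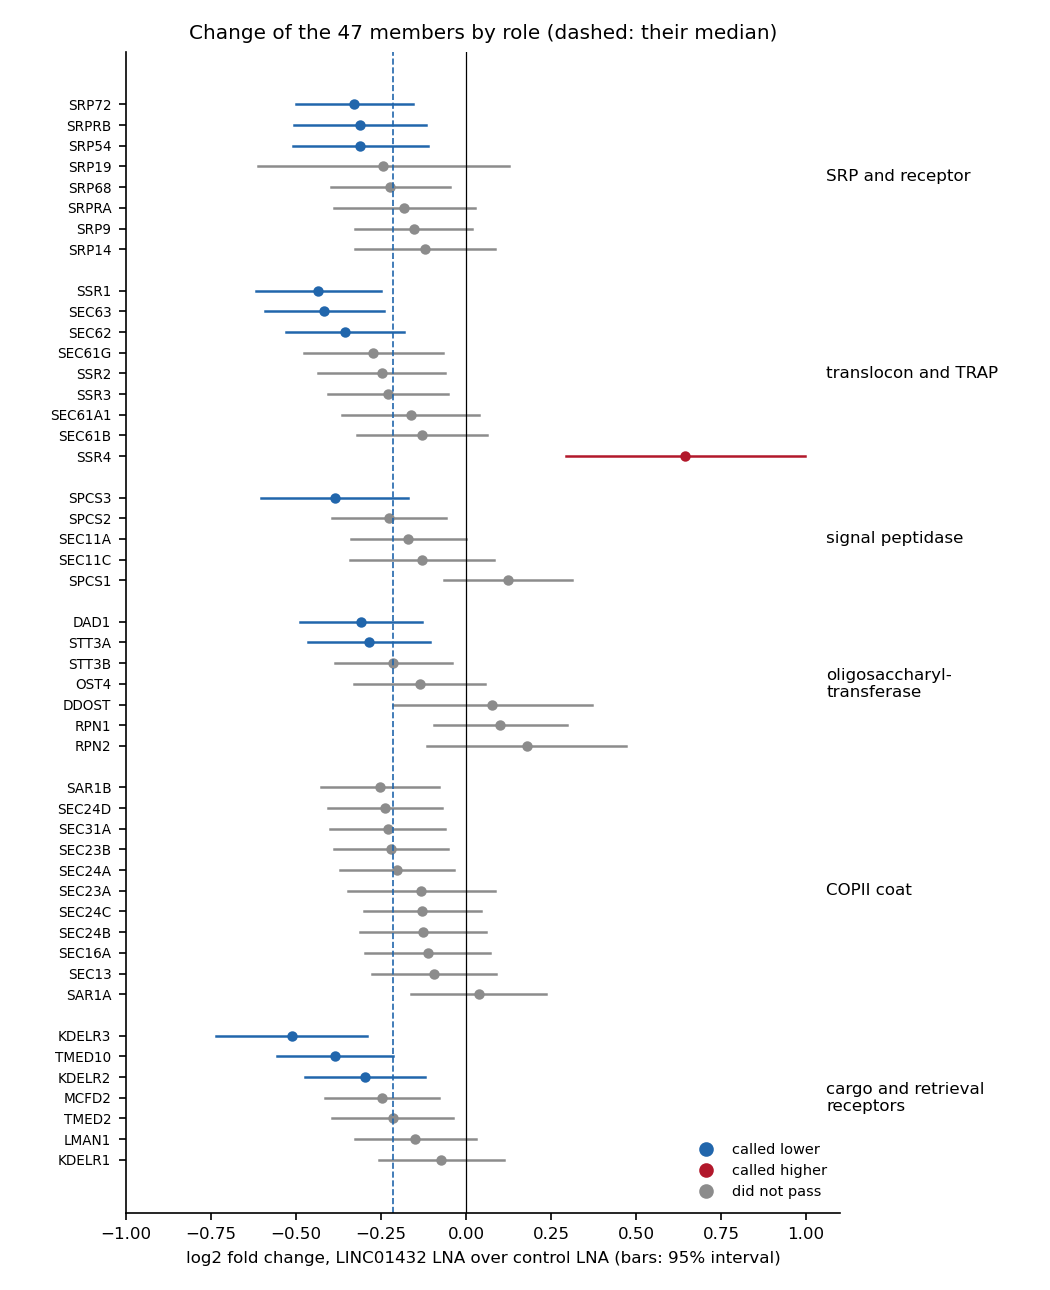
Log2 fold change of each of the 47 members (points) with its 95% interval from the edgeR fit (bars), grouped by role; colours give the call at an adjusted p under 0.05 and the dashed line is the members' median. Points left of 0 are lower with LINC01432 LNA: 12 are called lower, spread over every role except the COPII coat, and SSR4 alone is called higher.

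Summed over the 47 genes, the members held 10200 and 10400 CPM in the control libraries and 8932 and 9655 CPM in the LINC01432 LNA libraries, or 90.2% of control. LINC01432 LNA library 1 was lower than library 2 in this sum (86.7% and 93.7% of the control mean). The same pair differed by a median of 0.12 on the log2 scale per member, and library 2 ran from 0.49 below (SRP19) to 0.65 above (SSR4) library 1. In the control pair the median difference was 0.04 and the largest 0.17.

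The call count depended on single libraries, while the median did not change sign. Without control library 1, edgeR called 0 members (10 were lower at an unadjusted p under 0.05, and the other tools were not run on 3 libraries), and without control library 2 it called KDELR3 lower and SSR4 higher. Without LINC01432 LNA library 1, 29 members were called lower and 5 higher, and without library 2, 37 were called lower and 1 higher. Those fits called 0.996%, 1.29%, 13.1% and 12.1% of all genes lower, in the same order, and 2.82%, 3.98%, 13.3% and 9.5% higher. The members' median was -0.22, -0.22, -0.22 and -0.25. With a single library in one arm, the lone library is assumed to vary like the intact pair. The control pair differed by 3.88 times the counting variance, the LINC01432 LNA pair by 12.6 times.

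SRP and its receptor fell in part: 3 of 8 genes fell and the other 5 did not pass (median -0.23). Outside the translocon group, with all 4 libraries and no correction, 0 members rose by edgeR, DESeq2 or limma-voom, and 0 were higher at an unadjusted p under 0.05 by any of these tests. SRP54 (chromosome 14 from 34981957 to 35029567, GRCh38), the GTPase subunit that binds the signal sequence, was measured at 50.6 and 51.8 CPM in controls and 38.3 and 44.2 CPM after LINC01432 LNA. This is a log2 fold change of -0.31 (standard error 0.09, edgeR adjusted p = 0.0460). SRP72 (chromosome 4 from 56467336 to 56503681), which pairs with SRP68 on the SRP RNA, went from 186 and 186 CPM to 153 and 144 CPM, a change of -0.33 (standard error 0.08, edgeR adjusted p = 0.0191). For both genes the LINC01432 LNA libraries lay below both controls, as for 25.9% of all genes tested. For SRP54 the call was lost after a correction for GC content (-0.22, adjusted p = 0.176) and with DESeq2 (-0.32, adjusted p = 0.0596).

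SRPRB (chromosome 3 from 133784033 to 133825772), the membrane anchor of the receptor, stood at 151 and 151 CPM in controls and 113 and 131 CPM with LINC01432 LNA (log2 fold change -0.31, standard error 0.09, edgeR adjusted p = 0.0412), and 21.1% of its exonic bases overlap another gene. Its partner SRPRA, the receptor GTPase and the gene of this group with the highest level per kb of exon, had 267 and 273 against 217 and 260 CPM. That difference of -0.18 did not pass (edgeR adjusted p = 0.262). SRP68 (-0.22), SRP9 (-0.15), SRP14 (-0.12) and SRP19 (-0.24) did not pass either. Control and LINC01432 LNA libraries overlapped for SRP14 and SRP19. A pseudogene copy of SRP9 drew counts equal to 8.89% of those of SRP9. The RNA of the particle is transcribed from near-identical 7SL copies, of which RN7SL1, whose exonic bases all overlap another annotated gene, was listed at 28260 ± 4056 CPM in controls and 29410 ± 1363 CPM with LINC01432 LNA (SD, n = 2), and RN7SL2 at 0. RN7SL1 had a log2 fold change of 0.06 (edgeR adjusted p = 0.826).

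At the translocon, 3 of 9 genes fell (SEC62, SEC63 and SSR1), 1 rose (SSR4) and 5 did not pass, the channel subunits among them (median -0.25). The number lower was 5 with library totals or no filter on low counts, where SSR2 and SSR3 were added (3.47% and 2.08% of all genes fell). With the replicate number as a term the number was 5 (8.66%), and 5 with GC correction as well (11.6%). DESeq2 called 4 (5.37%), GC correction left 2 (5.84%) and GC and length correction left 1 (6.4%). At an unadjusted p under 0.05, 4 were lower in that last fit, as were 13.8% of all genes. SEC63 (chromosome 6 from 107867756 to 107958189), whose J domain recruits the chaperone BiP to the channel, had 72.6 and 74.7 CPM in controls and 53.4 and 56.9 CPM with LINC01432 LNA, or 74.9% of control (log2 fold change -0.42, standard error 0.08, edgeR adjusted p = 0.00612). Its cofactor SEC62 (chromosome 3 from 169966635 to 169998373) had 116 and 123 against 90.9 and 96.2 CPM, or 78.2% of control (-0.35, standard error 0.08, edgeR adjusted p = 0.0140). Both LINC01432 LNA libraries lay below both controls for these partners, as for 25.9% of all genes tested. After GC correction SEC62 was not called (-0.22, adjusted p = 0.117). Nor was SEC63 once the length of the longest transcript was corrected for as well (-0.27, adjusted p = 0.0579). Pseudogenes of SEC63 held 4.18% of its counts.

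The channel itself, SEC61A1, was the member with the highest level per kb of exon, 187 CPM per kb in controls. With the longest transcript as the length (3635 bases, against 2314 for RPN1), RPN1 stood higher. SEC61A1 had 872 and 885 CPM against 729 and 841 CPM, and its change of -0.16 did not pass (95% interval -0.36 to 0.04, edgeR adjusted p = 0.308). For the small subunits SEC61B and SEC61G the values were -0.13 and -0.27, and neither passed (edgeR adjusted p = 0.400 and 0.0838). The difference between the channel and its partners was not tested.

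The 4 subunits of the TRAP complex, which helps signal sequences open the channel, did not move alike. SSR1 (chromosome 6 from 7268306 to 7347446), the alpha subunit, fell from 766 and 765 CPM to 589 and 544 CPM, or 74.0% of control (log2 fold change -0.43, standard error 0.08, edgeR adjusted p = 0.00626). SSR2 and SSR3, the beta and gamma subunits, had 430 and 444 against 349 and 388 CPM, and 713 and 730 against 618 and 612 CPM. Those differences of -0.25 and -0.23 did not pass (edgeR adjusted p = 0.0860 and 0.0908). For these 3 subunits both LINC01432 LNA libraries lay below both controls, as for 25.9% of all genes tested.

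SSR4 (chromosome X from 153793516 to 153798505), the delta subunit, was the only member that rose, with 126 and 141 CPM in controls and 162 and 254 CPM with LINC01432 LNA (log2 fold change 0.64, standard error 0.16, edgeR adjusted p = 0.0237). The size of this rise rested on LINC01432 LNA library 2: without it the log2 fold change was 0.27, still called, and without library 1 it was 0.92. SSR4 also had the highest GC content of the members, 60.8%, and after GC correction its value was 0.44 and not called (adjusted p = 0.0795). DESeq2 did not call it (0.63, adjusted p = 0.227), nor did the fit without control library 1 (0.55, adjusted p = 0.0540). The part of GC content in this result was not tested further.

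**Figure D2:**
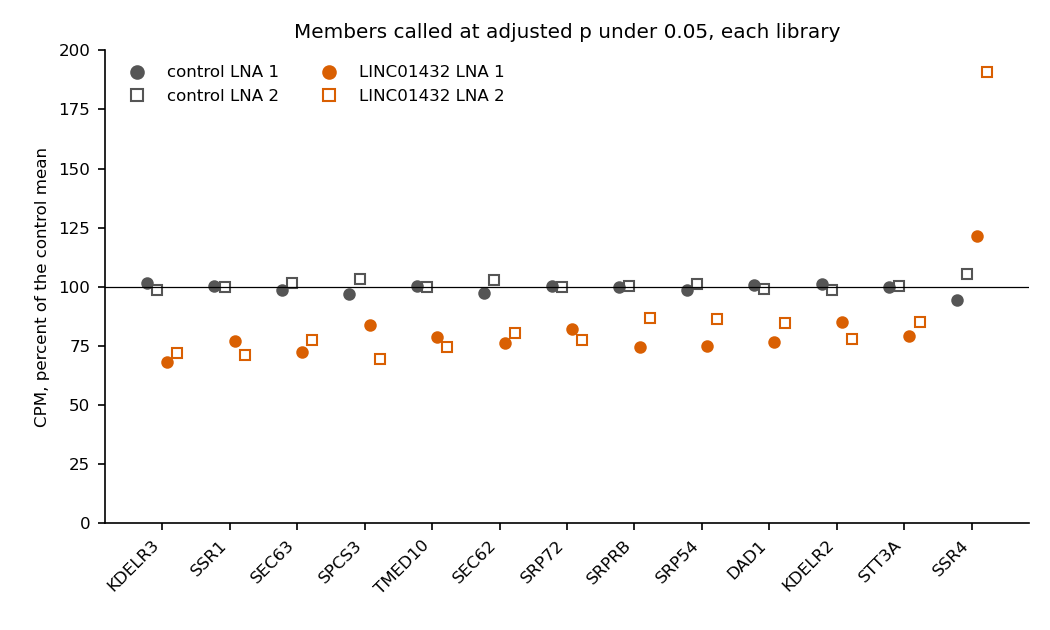
CPM of the 13 members called with all 4 libraries, each library shown as a percentage of the gene's control mean (grey, control LNA; orange, LINC01432 LNA; filled circles, library 1; open squares, library 2). For the 12 lowered genes, called from these same libraries, the orange points all lie below the grey ones, as in 25.9% of all genes tested. For SSR4 the LINC01432 LNA libraries lie at unequal heights above the grey points, and 28.2% of all genes had both above.

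Signal peptidase removes the signal sequence, with SEC11A and SEC11C as alternative catalytic subunits. Of its 5 genes 1 fell and 4 did not pass (median -0.17). SPCS3 (chromosome 4 from 176319964 to 176332245), an accessory subunit, fell from 60.7 and 64.8 CPM to 52.6 and 43.4 CPM (log2 fold change -0.39, standard error 0.10, edgeR adjusted p = 0.0269). It has the lowest GC content of the members, 35.8%, and after GC correction it stood just outside the threshold (-0.26, adjusted p = 0.0511). Scaled by library totals alone, SPCS3 was not called either (-0.39, adjusted p = 0.0657). It was called lower after GC and length correction, and after GC correction with the replicate number as a term. Those fits called 6.4% and 11.6% of all genes lower. SEC11A had 84.7 and 86.7 against 76.9 and 75.6 CPM, and SEC11C had 175 and 184 against 148 and 179 CPM. Neither catalytic subunit passed (-0.17 and -0.13, edgeR adjusted p = 0.192 and 0.454). SPCS2 did not pass (-0.23), and its 4 pseudogenes drew counts equal to 5.27% of its own. SPCS1 had the highest level per kb of exon in the group, but SEC11C stood higher when the longest transcript gave the length. The value for SPCS1, 0.12, did not pass, and 58.1% of its exonic bases overlap another gene, NEK4, on the opposite strand.

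Of the 7 oligosaccharyltransferase genes, 2 fell and 5 did not pass (median -0.14). STT3A (chromosome 11 from 125591712 to 125625215), the catalytic subunit that works beside the translocon, had 480 and 481 CPM in controls and 379 and 409 CPM with LINC01432 LNA (log2 fold change -0.29, standard error 0.08, edgeR adjusted p = 0.0438). DAD1 (chromosome 14 from 22564905 to 22589269), a small shared subunit, had 86.3 and 84.8 against 65.5 and 72.5 CPM (-0.31, standard error 0.08, edgeR adjusted p = 0.0318). In both genes the LINC01432 LNA libraries lay below both controls, as in 25.9% of all genes tested. GC correction took STT3A out of the calls (-0.22, adjusted p = 0.0837) and left DAD1 in.

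STT3B, the other catalytic subunit, which also modifies sites missed during translation, had 430 and 422 against 369 and 365 CPM and did not pass (-0.21, edgeR adjusted p = 0.106). The shared subunits RPN1, RPN2 and DDOST had positive values that did not pass, 0.10, 0.18 and 0.08. Each of these 3 had overlapping groups, and LINC01432 LNA library 2 was above library 1, as with 432 against 308 CPM for RPN2 and 499 against 353 CPM for DDOST. Without library 2 their values were -0.01, -0.10 and -0.21, and their highest values without any 1 library were 0.17, 0.38 and 0.29. Their direction thus depended on library 2, and DDOST also turned negative without control library 1. RPN1 had the highest level per kb of the complex, 181 CPM per kb in controls. OST4, the smallest subunit, did not pass (-0.14).

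**Figure D3:**
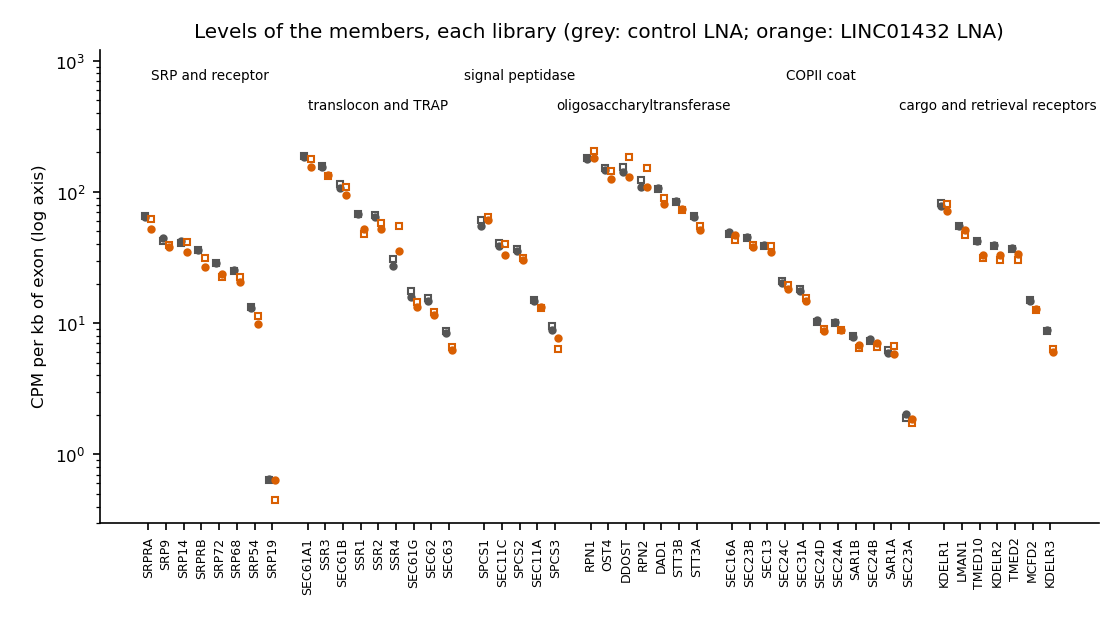
Level of every member in each library, as CPM per kb of exon on a log axis, ordered within roles by the control mean (grey, control LNA; orange, LINC01432 LNA; filled circles, library 1; open squares, library 2). SEC61A1 and RPN1 are the highest and SRP19 the lowest, and the distance between genes is far larger than that between the groups.

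None of the 11 COPII genes passed. Negative values were found for 10 of them, in a narrow range, and for 48.1% of all genes tested. SAR1A was the exception. At an unadjusted p under 0.05 edgeR had 5 of 11 lower, beside 11.3% of all genes. By adjusted p it called 0 of 11, as did DESeq2 and limma-voom, with a median of -0.13. This count depended on single libraries and on the block. With the replicate number as a term 4 were called lower, beside 8.66% of all genes. The coat median was -0.17 without control library 1 and -0.19 without control library 2. It was -0.20 without LINC01432 LNA library 1 and -0.20 without library 2. Their sum was 1539 and 1520 CPM in controls and 1374 and 1376 CPM with LINC01432 LNA, 89.9% of control, so that the LINC01432 LNA libraries were close to each other here. In 10 of the 11 both LINC01432 LNA libraries lay below both controls, as in 25.9% of all genes tested and 36% of the 9446 abundant genes described above. SAR1B, a GTPase that starts coat assembly, had the smallest p, with 86.5 and 86.8 against 75.1 and 70.4 CPM (-0.25, edgeR adjusted p = 0.0607). Its paralogue SAR1A had 40.7 and 43.5 against 40.3 and 46.0 CPM (0.04, edgeR adjusted p = 0.854).

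For the inner coat, SEC23B had 200 and 197 against 167 and 173 CPM (-0.22, edgeR adjusted p = 0.0883), and SEC23A had 18.1 and 16.9 against 16.6 and 15.5 CPM (-0.13, adjusted p = 0.459). Cargo-binding subunits SEC24A, SEC24B, SEC24C and SEC24D had -0.20, -0.13, -0.13 and -0.24, of which none passed, and 42.9% of the exonic bases of SEC24C overlap another gene. Outer coat genes SEC13 and SEC31A had -0.09 and -0.23. SEC16A, the scaffold of exit sites, had 492 and 474 against 466 and 428 CPM (-0.11, edgeR adjusted p = 0.451). Its level per kb of exon was the highest of the coat genes, but SEC13 and SEC23B stood higher when the longest transcript gave the length.

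Paralogues were also set against each other within each library, as ratios of levels per kb that library scaling cannot move. SEC23A stood at 0.0432 times SEC23B in controls and 0.0461 times with LINC01432 LNA. The SAR1A to SAR1B ratio was 0.770 and 0.939. STT3A to STT3B stood at 0.765 and 0.727, and SEC11A to SEC11C at 0.375 and 0.367. SEC24C was the most abundant SEC24 paralogue per kb of exon, at 1.97 times SEC24D in controls, but 0.915 times when the longest transcript gave the length. STT3A likewise stood at 1.05 times STT3B by that length. In the exact two-sided permutation test over libraries, none of the 13 ratios passed. The smallest p that 2 against 2 libraries allow is 0.33, which 8 ratios reached (exact permutation, adjusted p = 0.541).

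Receptors that carry or retrieve cargo had 3 of 7 genes that fell and 4 that did not pass (median -0.25). KDELR3 (chromosome 22 from 38468062 to 38483447), one of 3 KDEL receptors, had the largest fall of any member, from 17.2 and 16.7 CPM to 11.6 and 12.2 CPM, or 70.0% of control (log2 fold change -0.51, standard error 0.10, edgeR adjusted p = 0.00709). KDELR2 (chromosome 7 from 6445953 to 6484242) fell from 158 and 154 CPM to 133 and 122 CPM (-0.30, standard error 0.08, edgeR adjusted p = 0.0355), though not when scaled by library totals alone (-0.30, adjusted p = 0.0506). KDELR1, the most abundant of the 3, had 177 and 185 against 162 and 181 CPM, groups that overlapped, and did not pass (-0.07, edgeR adjusted p = 0.656). The KDELR1 to KDELR3 ratio per kb was 9.14 in controls and 12.4 with LINC01432 LNA, with no overlap between the groups and an exact permutation p of 0.33.

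TMED10 (chromosome 14 from 75131470 to 75176631), a p24 cargo receptor, fell from 211 and 210 CPM to 165 and 157 CPM, or 76.5% of control (log2 fold change -0.39, standard error 0.08, edgeR adjusted p = 0.00806). Its partner TMED2 had 143 and 141 against 128 and 117 CPM and did not pass (-0.22, edgeR adjusted p = 0.114). LMAN1 and MCFD2, which together carry coagulation factors in other cells, had -0.15 and -0.25 and did not pass either (edgeR adjusted p = 0.283 and 0.0594). In all 4 of these genes both LINC01432 LNA libraries were below both controls, as in 25.9% of all genes tested.

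The members' changes moved with GC content, as those of all genes did. Over the 47 members the correlation of GC content with log2 fold change was 0.57 (Pearson; 0.45 without SSR4), and over 17060 tested genes it was 0.36. These are correlations across genes of the same 4 libraries, given as a description. The 16 members with the lowest GC (35.8% to 40.6%) had a median log2 fold change of -0.24, beside -0.12 for all genes in that range, and 6 of them fell, where 8.89% of those genes did. In the middle 16 (41.3% to 48.0%) the medians were -0.24 and -0.06, and 5 fell against 6.39%. For the 15 with the highest GC (48.8% to 60.8%) they were -0.13 and 0.05, and 1 fell against 2.69%. With the GC trend subtracted from each library, at an unadjusted p under 0.05 edgeR had 25 members lower and 2 higher. Of the 17060 genes in that fit, 2315 (13.6%) were lower and 2069 higher at that threshold. By adjusted p, 9 members were called lower and 0 higher, against 5.84% and 5.43% of all genes. The uncorrected shares of all genes were 4.37% and 7.5%, and the members' median after correction was -0.16. Of those 9, 8 had been called without the correction: DAD1, KDELR2, KDELR3, SEC63, SRP72, SRPRB, SSR1 and TMED10. SRP68 was the ninth.

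**Figure D4:**
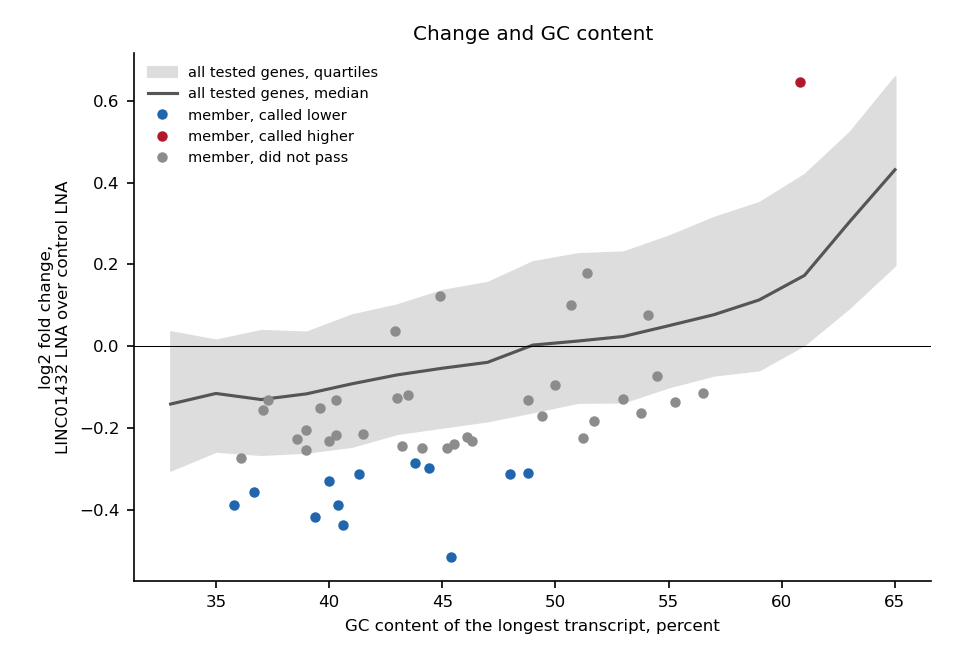
Log2 fold change against GC content of the longest transcript, for the members (points, coloured by call) and for all tested genes in 2-percentage-point bins (line, median; band, quartiles). The line climbs with GC content, and the members lie mostly below it, with SSR4 the highest point.

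Other genes of the pathway, in lists made by function, gave uneven counts, to be read beside the 4.37% of all genes tested that fell and the 7.5% that rose. The COPI coat with its ARF GTPases, which returns vesicles from the Golgi to the ER, had 6 of 17 genes that fell (35.3%) and 11 that did not pass (median -0.26). GBF1, the exchange factor that loads ARF with GTP, stood at 187 ± 0.748 CPM in controls and 124 ± 2.05 CPM with LINC01432 LNA (SD, n = 2; log2 fold change -0.60, edgeR adjusted p = 0.000545). ARFGAP3 and COPA, a GTPase activator and a coat subunit, fell by 0.52 and 0.42 on the log2 scale. Of 30 exit regulators, adaptors and tethers, 4 fell (13.3%) and 26 did not pass (median -0.11), with ERGIC1 at 71.4%, ERGIC2 at 76.0% and RAB1A at a log2 fold change of -0.31. Among 7 other p24 genes, TMED5 fell (-0.31, edgeR adjusted p = 0.0493) and 6 did not pass, and DESeq2 called 0 of the 7 (1 was lower at an unadjusted p under 0.05).

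For glycosylation, 2 of 28 tested genes of lipid-linked oligosaccharide synthesis fell (7.14%) and 26 did not pass (median -0.07), and DESeq2 and limma-voom each called 1. ALG8, a glucosyltransferase that acts on the sugar donor, stood at 71.5% of control (log2 fold change -0.48, edgeR adjusted p = 0.00215). ALG10, which follows it, stood at -0.61, with 42.2% of its exonic bases overlapping another gene. Of 5 tested accessory subunits of oligosaccharyltransferase, MAGT1, an oxidoreductase subunit of the STT3B form, fell to 77.6% of control (edgeR adjusted p = 0.00981). For glycan trimming and lectin chaperones, edgeR, DESeq2 and limma-voom each called 0 of 11 genes. At an unadjusted p under 0.05, 4 were lower in each test, beside 11.3%, 7.86% and 11.4% of all genes in the same order. Translocon partners split, with 3 of 23 lower (DNAJC3, HSPA13, HYOU1) and 3 higher (HM13, NCLN, SPPL2B). In the ER membrane complex and tail-anchor insertion list, 1 of 17 fell (MMGT1) and 3 rose (CAMLG, EMC8, GET4), where 80.8% of the exonic bases of GET4 overlap another gene.

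Factors of the unfolded protein response, the pathway that adjusts ER capacity, moved in both directions. XBP1 fell from 440 ± 3.90 to 344 ± 17.5 CPM (SD, n = 2; log2 fold change -0.35, edgeR adjusted p = 0.0159), and MBTPS2, a protease that activates ATF6, fell by 0.31. ATF4, DDIT3 and PPP1R15A, of the PERK arm, rose by 0.42, 1.19 and 0.91 on the log2 scale, with 39.6% of the exonic bases of DDIT3 overlapping another gene. Of this list of 13, 2 thus fell and 3 rose, and the counts pool spliced and unspliced XBP1.

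Other settings that kept all 4 libraries called 9 to 22 members lower. Scaling by DESeq2's size factors called 12 lower and 1 higher (4.56% and 6.98% of all genes), and library totals 12 and 1 (3.47% and 6.66%), of which 10 of the 12 were shared. With no filter on low counts 14 were lower and 1 higher (2.08% and 3.29%), SSR2 and SSR3 being the added genes, and with a minimum count of 50 the numbers were 12 and 1 (6.17% and 11.6%). DESeq2's own test called 12 lower and 0 higher, against 5.37% and 8.03% of the genes to which it gave an adjusted p. At an unadjusted p under 0.05 it had 0 members higher, and 1725 of all 18680 genes. With limma-voom the calls were 12 and 1 (4.31% and 7.33%). After correction for GC content and length, edgeR called 10 lower and 0 higher, against 6.4% and 6.2% of all genes. At an unadjusted p under 0.05, 2 members were higher in that fit, as were 2205 of 17060 genes. With the replicate number as a term (a replicate block) the calls were 22 lower and 1 higher, against 8.66% and 12% of all genes, and with GC correction as well 22 and 2, against 11.6% and 10.3%. The labels do not give equal numbers a shared culture or day.

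**Figure D5:**
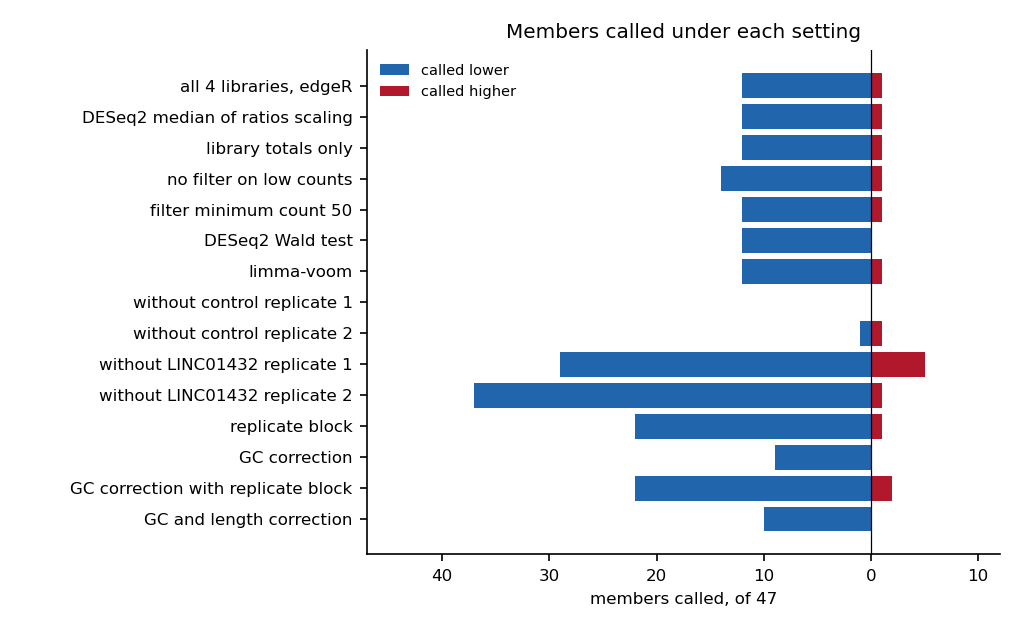
Number of the 47 members called lower (left of 0) and higher (right of 0) under each setting, from the edgeR fit with all 4 libraries to fits with other scalings, filters, tests, left-out libraries and corrections. Settings that keep all 4 libraries call 9 to 22 members lower, the most with a replicate block, and those without a control library call 0 or 1.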

How the data were processed

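The authors deposited whole-number counts per gene for 4 libraries, without normalization. The submitters' processing notes list GRCh38 and, with no role or order, bcl2fastq, STAR (2.7.11b), Salmon (1.10.0), Subread and featureCounts (2.0.8). Annotation release and strand setting were not given in the sources used here, so reads of overlapping genes may have been pooled or lost. Per the labels, ribosomal RNA was removed with RNase H, but the design text speaks of poly(A) RNA. Spike-in (92) and transgene (5) rows were left out.

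Of 78932 Ensembl IDs, 61481 had a symbol. Positions, exon lengths and GC content came from GENCODE 29, promoters from RefSeq (GRCh38.p14). The main test was the quasi-likelihood test of edgeR 4.0.16 in R 4.3.3 (TMM, minimum count 10, minimum total 15, group as the only term), adjusted by Benjamini-Hochberg over all genes tested. It was tested on data simulated with a common dispersion for all genes and both groups. That simulation does not cover the unequal spread of the control pair and the LINC01432 LNA pair. Standard errors come from the F statistic. The biological coefficient of variation was 7.13%, and 3 counts equal 0.103 to 0.144 CPM. GC correction subtracted a lowess trend (span 0.3) per library. Other tests were DESeq2 1.42.0 and limma-voom (limma 3.58.1). Members, lists and tests were chosen with earlier results of these data known. Named with values were the members called, the smallest p in a role without calls, the highest level per kb in each role, the paralogues, and up to 3 called genes of each other list with the smallest p. Further names fall outside this rule and were chosen after their values were seen.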

Additional observations from a re-analysis of the deposited data

How the results depend on the processing

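The members' median stayed negative under all 14 alternatives. It was -0.16 after GC correction, with or without a replicate block, and -0.15 after GC and length correction. Leaving out 1 library gave -0.22 to -0.25, with 0 to 38 members called, 0 to 37 lower and 0 to 5 higher. Among all genes these fits called 766 to 5228, with 200 to 2591 lower and 566 to 2637 higher. Members called higher fell to 0 with DESeq2, after GC correction and after GC and length correction, and 926 genes were called higher in all after GC correction. The range without 1 library was -0.0093 to 0.17 for RPN1, -0.10 to 0.38 for RPN2, -0.21 to 0.29 for DDOST and -0.079 to 0.11 for SAR1A, with negative values without LINC01432 LNA library 2 and, for DDOST and SAR1A, also without control library 1 (-0.01 and -0.03). The cause was not tested. Equal replicate numbers did not mark a shared culture in the labels, and 2 pairs are too few to show from the data that the numbers pair the samples. Library differences of the 2 groups correlated at 0.14 over 18680 genes and at 0.28 over the 6638 genes with a mean of at least 20 CPM. With a replicate block, edgeR called 23 members, 22 lower and 1 higher, and 3862 genes in all, 1617 lower and 2245 higher. GC correction with the block gave 24 members, 22 lower and 2 higher, and 3744 genes, 1987 lower. Apart from the higher calls named above, other alternatives kept the counts over all members and all genes within 1.5 times. Some counts by role moved more. Signal peptidase went from 1 lower to 0 with library totals (3 at an unadjusted p under 0.05) and after GC correction (2). Oligosaccharyltransferase went from 2 to 1 after GC correction. The translocon went from 3 to 5 with library totals or no filter on low counts (3.47% and 2.08% of all genes). After GC and length correction it had 1 (6.4% of all genes), with 4 at an unadjusted p under 0.05. Without 1 library, the paralogue differences of SEC11A against SEC11C and of SEC24B against SEC24C, both near 0, changed sign. SRP19, the member with the fewest counts, had the largest standard error, 0.17.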
